A study of Rattus norvegicus with 6 samples.

Results

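Hox genes encode homeodomain transcription factors that lie in 4 chromosomal clusters, a to d, and are numbered within each cluster by paralog group. The members were chosen by name: every array feature whose gene symbol was Hoxa, Hoxb, Hoxc or Hoxd followed by a number. The symbol came from the array files or, failing that, from the authors' value table, which alone named Hoxc13. The choice gave 24 genes from 34 of the 26419 features on the array, with 5 genes of cluster a, 6 of b, 7 of c and 6 of d. Where a gene had several features, the row with the highest mean stood for it. A gene counted as on in a pool at an intensity of 50 or more, which is 5.64 on the log2 scale, and as off below that.

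The study compared acute alcohol intoxication with saline in male Sprague-Dawley rats, 8 to 10 weeks old and weighing 240 to 260 g, on 6 single-colour arrays. The alcohol group held 3 pools of tissue from rats fasted for 12 h and given 40% alcohol by gavage at 15 ml/kg. The saline group held 3 pools from rats fasted for the same time and given that volume of saline. Each pool was ground from the tissue of 3 rats, labelled as cerebellum, so variation between the rats of a pool cannot be seen, and the time from gavage to collection is not given in the sources used here. Values are log2 RMA intensities, the authors' normalised signal averaged over the probes of a feature, and only the values of the same gene in different pools are compared here.

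During development the order of Hox genes along a cluster matches the order in which they are switched on along the body axis, with low paralog numbers reaching farthest forward in the hindbrain and high numbers restricted to the trunk and tail. The cerebellum arises from the most anterior hindbrain segment, which in mouse and chick lies ahead of the Hox domains. Neurons of the pons, medulla and spinal cord keep part of this Hox code into adult life in mouse.

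The labelled tissue was checked with markers before the Hox values were read. Pcp2 (Purkinje cell protein 2) stood at 13.54, 5.27 and 13.42 in alcohol pools 1, 2 and 3 and at 5.65, 13.60 and 13.44 in saline pools 1, 2 and 3. Gabra6, the GABA-A receptor subunit of granule cells, read 14.00, 5.20 and 14.18 with alcohol and 7.49, 13.97 and 14.04 with saline. Alcohol pool 2 and saline pool 1 thus stood far below the remaining 4 pools in these cerebellar neuron genes. All 11 measured Purkinje cell markers and all 11 granule cell markers were lower in both pools than in any other, where the background over all features was 25.1%. The general neuronal gene Snap25 ranged from 14.93 to 15.12 over the 6 pools. The rest of the 4 general neuronal genes were not level: 1 was higher in both pools than in any other, and 2 were lower. Tubb3 read 13.23 and 13.47 in alcohol pool 2 and saline pool 1 against 11.83 to 12.12. Rbfox3 read 12.88 and 12.82 there against 14.33 to 14.45. Alcohol pool 2 and saline pool 1 go against their tissue label. Because they fall in opposite treatment groups, the treatment comparison of the Hox genes and lists is also given without them.

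Promoter sequences from RefSeq (assembly GRCr8) were matched to 11 of the 24 members. The sequences of the 4 members that were on in alcohol pool 2 and saline pool 1 and off in every other pool by the row that stands for the gene are shown, because their values carry the pattern described next. Each covers 250 bases before to 50 bases after the annotated start, 5′ to 3′ on the gene's own strand, at chr4:82595643-82595942 (minus strand) for Hoxa2, chr3:80072791-80073090 (plus) for Hoxd1, chr3:80045876-80046175 (plus) for Hoxd3 and chr7:136048809-136049108 (plus) for Hoxc4. Capitals mark matches, on either strand, to the motifs TGACAG, bound by Meis proteins, and TGATNNAT, bound by Pbx and Hox proteins together.
Hoxa2: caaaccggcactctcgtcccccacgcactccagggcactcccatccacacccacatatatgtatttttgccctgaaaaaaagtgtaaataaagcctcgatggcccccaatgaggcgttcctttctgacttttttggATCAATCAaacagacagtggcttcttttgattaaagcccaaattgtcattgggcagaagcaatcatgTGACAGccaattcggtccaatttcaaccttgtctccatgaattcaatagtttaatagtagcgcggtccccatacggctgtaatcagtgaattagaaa
Hoxd1: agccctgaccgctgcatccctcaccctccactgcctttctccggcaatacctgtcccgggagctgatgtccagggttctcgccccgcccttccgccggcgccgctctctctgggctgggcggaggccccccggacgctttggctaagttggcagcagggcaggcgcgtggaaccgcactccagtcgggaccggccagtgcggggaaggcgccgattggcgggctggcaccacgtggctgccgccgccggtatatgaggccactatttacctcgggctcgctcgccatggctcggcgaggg
Hoxd3: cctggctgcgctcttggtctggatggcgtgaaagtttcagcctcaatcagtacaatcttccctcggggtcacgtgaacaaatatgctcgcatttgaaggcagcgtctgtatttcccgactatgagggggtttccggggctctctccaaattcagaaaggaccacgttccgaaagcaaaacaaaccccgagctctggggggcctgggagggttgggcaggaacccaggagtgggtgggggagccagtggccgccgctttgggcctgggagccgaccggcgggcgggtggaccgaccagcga
Hoxc4: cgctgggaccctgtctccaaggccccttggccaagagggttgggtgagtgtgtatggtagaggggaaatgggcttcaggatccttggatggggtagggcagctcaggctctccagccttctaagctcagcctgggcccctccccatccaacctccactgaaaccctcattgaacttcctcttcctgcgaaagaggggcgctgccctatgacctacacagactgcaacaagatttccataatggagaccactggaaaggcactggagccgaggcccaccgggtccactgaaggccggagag

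The Hoxa2 window held 1 match to each motif, and these did not overlap, whereas the Hoxd1, Hoxd3 and Hoxc4 windows held neither. Over all 33469 promoters of the same length, 19.0% held TGACAG and 9.10% held TGATNNAT. Among the 11 member promoters, TGACAG occurred in Hoxa2 alone and TGATNNAT in Hoxa2, Hoxa7 and Hoxb1. The homeodomain core TAATTA, present in 5.36% of all promoters, occurred in 0 of the 11, and the TATA box letters TATAAA, present in 14.2%, occurred in Hoxa9 and Hoxd13. The retinoic acid response element, a direct repeat with a spacer of 5 bases, was in 0 of the 11 and in 0.00896% of all promoters. The GC content was 44.7% for Hoxa2, 70.0% for Hoxd1, 60.7% for Hoxd3 and 59.0% for Hoxc4, against a median of 51.7% over all promoters. The 4 windows thus shared none of the searched motifs, and their GC content spanned both sides of that median. Outside the members, the window of Hoxa3, whose values are given below, held 1 match to TGACAG and none to TGATNNAT.

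Of the 24 members, 13 (54.2%) were off in all 6 pools, against 22.2% of all features. Those named here are Hoxa7, Hoxb2, Hoxb8, Hoxb9, Hoxb13, Hoxc5, Hoxc6, Hoxc8, Hoxc12, Hoxd10, Hoxd12 and Hoxd13, and the 13 had levels between 3.99 and 5.62. The random-sequence control of the arrays lay between 4.54 and 4.67, so that the signal of these genes was close to background. The other 11 were on in at least 1 pool, as 77.8% of all features were, and only Hoxc13 was on in all 6. The Hoxc13 row has a placeholder symbol in the array files and is a member only through the authors' value table. That table keeps features at 50 or above on 3 or more arrays, so its membership depended on being on. By cluster the 11 were Hoxa2, Hoxa5 and Hoxa9, then Hoxb1 and Hoxb3, then Hoxc4, Hoxc10 and Hoxc13, and last Hoxd1, Hoxd3 and Hoxd4.

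**Figure D1:**
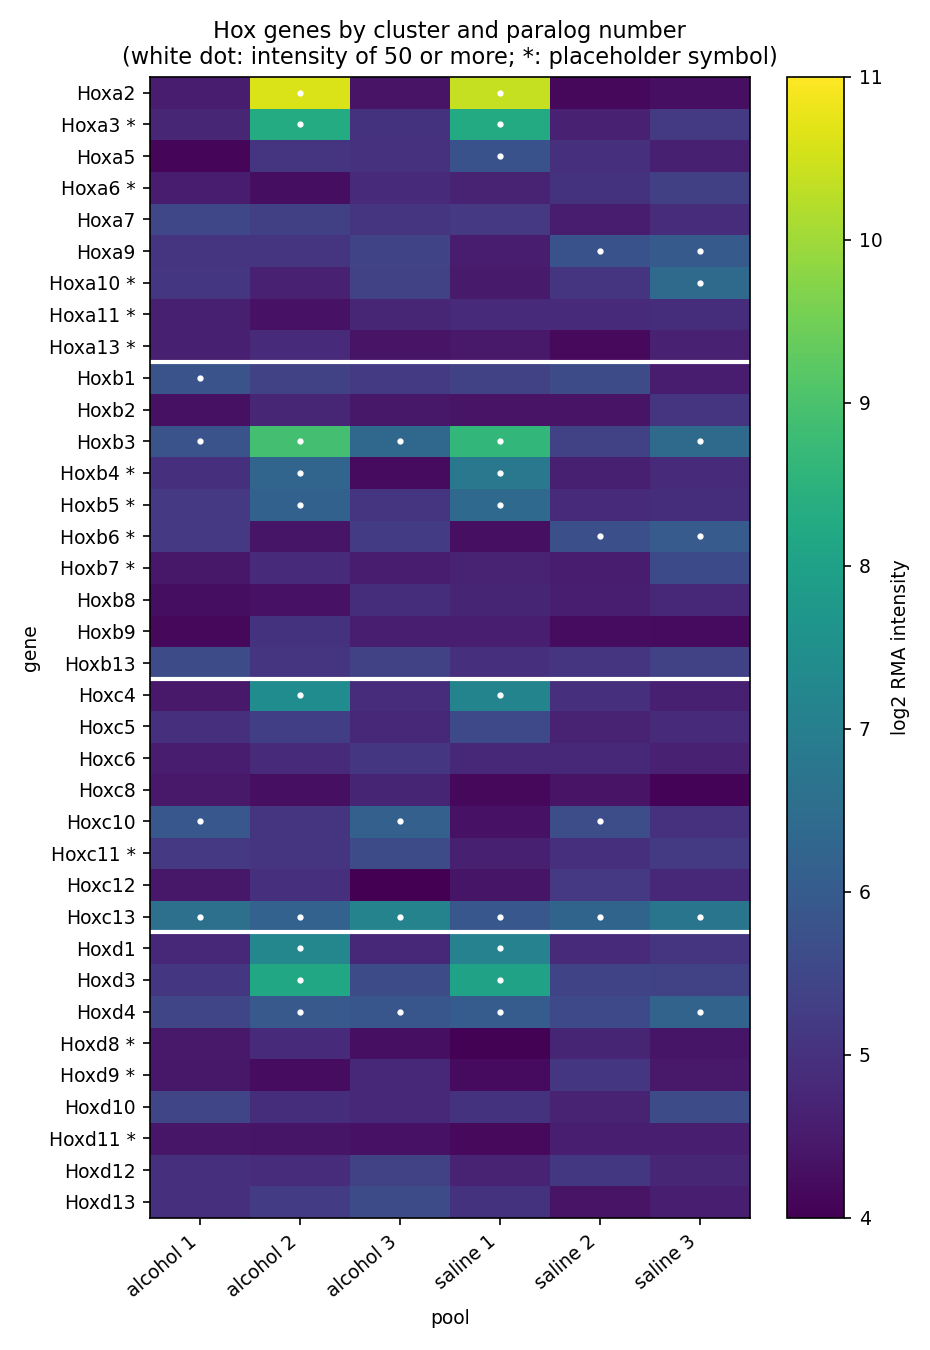
Log2 RMA intensity of the named Hox cluster genes, and of 13 further Hox genes listed under placeholder symbols (asterisk), in rows by cluster and paralog number, with the 6 pools in columns; a white dot marks an intensity of 50 or more and white lines divide the clusters. Hoxa2, Hoxc4, Hoxd1 and Hoxd3 carry dots in alcohol pool 2 and saline pool 1 and in no other pool.

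The number of members that were on was 4, 7 and 4 in alcohol pools 1, 2 and 3 and 8, 3 and 4 in saline pools 1, 2 and 3, whereas 66.9% to 68.8% of all features were on in a pool. Among the 11 members of paralog groups 1 to 5, it was 2, 6 and 2 with alcohol and 7, 0 and 2 with saline. Among the 13 members of groups 6 to 13, it was 2, 1 and 2 with alcohol and 1, 3 and 2 with saline. The surplus in alcohol pool 2 and saline pool 1 therefore lay in the low paralog numbers, whose developmental domains reach the hindbrain. None of the 4 members of groups 6 to 8 was on in any pool.

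**Figure D2:**
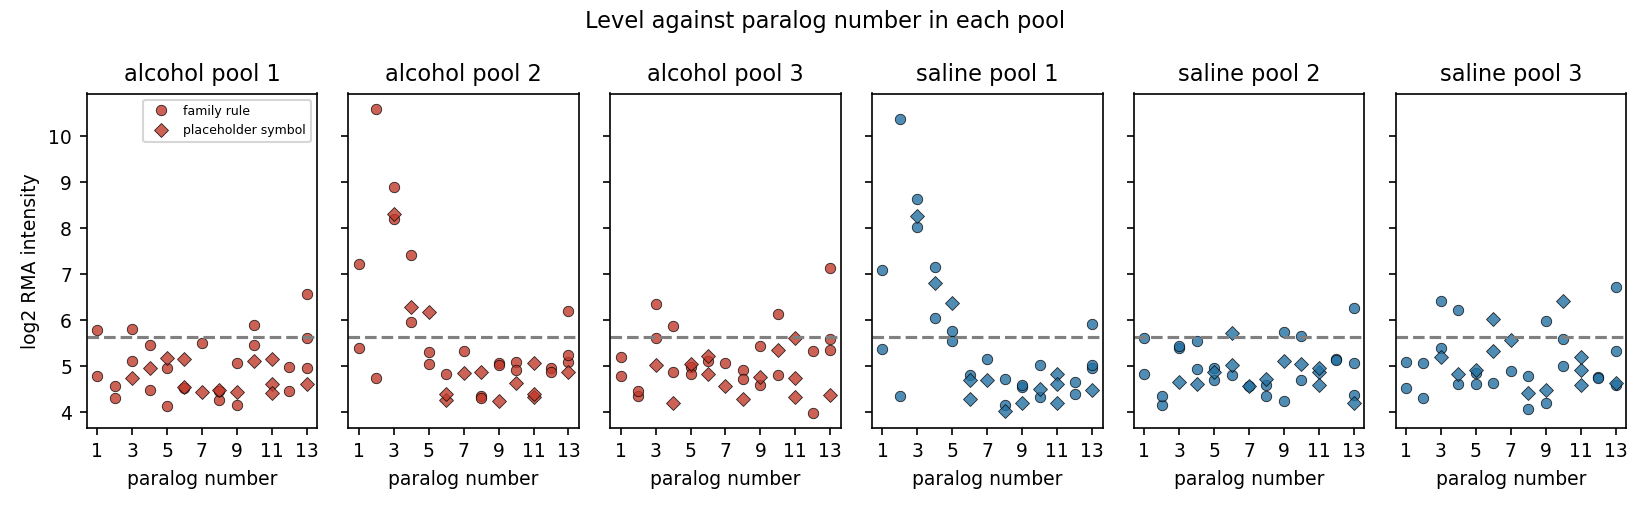
Log2 RMA intensity (vertical axis) against paralog number (horizontal axis) in each of the 6 pools; each circle is a named member, each diamond a Hox gene with a placeholder symbol, and the dashed line is an intensity of 50 (5.64). In alcohol pool 2 and saline pool 1 the points above the line lie mostly at paralog numbers 1 to 5, with 6 and 7 members on, while in the other pools at most 2 members of these groups are on.

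In alcohol pool 2 and saline pool 1, and in no other pool, 4 members were on by the row that stands for them, which is 16.7% of the family against 1.02% (270) of all features. Hoxa2, the Hox gene with the most anterior boundary in the mouse hindbrain, read 4.56, 10.60 and 4.36 in alcohol pools 1, 2 and 3 and 10.38, 4.16 and 4.30 in saline pools 1, 2 and 3. In linear terms its intensity was 1549 in alcohol pool 2 and 1333 in saline pool 1, the lower of which is 26.7 times the floor of 50. The alcohol and saline groups overlapped fully, and the high and the low pools were separated by 5.82 on the log2 scale. Because whole tissue was measured, fewer cells of a type and less RNA per cell cannot be told apart, here or for any other gene.

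Hoxd3, a paralog of the third group that helps pattern the neck vertebrae in mouse, read 5.11, 8.21 and 5.61 with alcohol and 8.03, 5.43 and 5.39 with saline. Its other feature gave 4.98, 8.41 and 5.82 and then 6.93, 5.09 and 5.40. The other feature was also on in alcohol pool 3. Both features were highest in the same 2 pools, but they differed on the distance between them: alcohol pool 2 minus saline pool 1 was 0.18 by the brighter feature and 1.47 by the dimmer.

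Hoxc4, expressed in the caudal hindbrain and neck region of the mouse embryo, read 4.48, 7.41 and 4.88 with alcohol and 7.16, 4.94 and 4.62 with saline. The other feature under that symbol, which the file describes as similar to the C5 protein, was off in all pools at 4.14 to 5.02. Hoxd1, needed in mouse for the central wiring of pain-sensing neurons, read 4.79, 7.23 and 4.79 with alcohol and 7.10, 4.84 and 5.09 with saline. The gap between the lower of the 2 high pools and the highest of the other 4 was 2.22 for Hoxc4 and 2.00 for Hoxd1, wider than any distance among the 4 low pools.

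**Figure D3:**
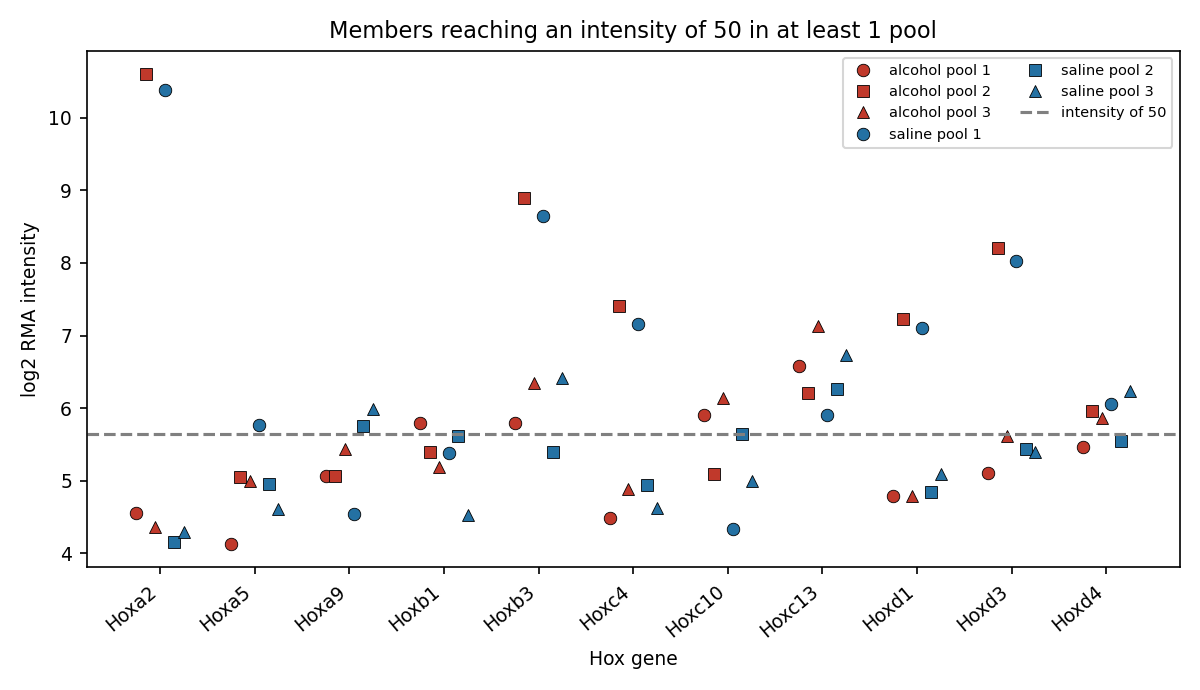
Log2 RMA intensity (vertical axis) of the 11 members that reached an intensity of 50 in at least 1 pool, with alcohol pools in red, saline pools in blue, pool numbers by marker shape and the dashed line at an intensity of 50. For Hoxa2, Hoxb3, Hoxc4, Hoxd1 and Hoxd3 the red square (alcohol pool 2) and the blue circle (saline pool 1) lie above all other points, while Hoxc10, Hoxc13 and Hoxd4 show no such gap.

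Hoxb3, a member of the third paralog group that acts in the mouse posterior hindbrain, was on in 5 pools. It read 5.80, 8.90 and 6.35 with alcohol and 8.64, 5.39 and 6.42 with saline, so that the same 2 pools were highest, by a gap of 2.22. Counting every gene with both of these pools above the other 4, 9 of 24 members (37.5%) qualified, against 23.4% of all features. Of these, 5 had gaps of 2.00 or more, and the rest, Hoxa5, Hoxb9 and Hoxc5 among them, had gaps of 0.01 to 0.34 and were off except Hoxa5 in saline pool 1.

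The remaining members that were on did not share the pattern. Hoxd4, a hindbrain and neck paralog, read 5.47, 5.96 and 5.87 with alcohol and 6.05, 5.54 and 6.23 with saline, on in 4 pools with a total range of 0.76. Hoxb1, which gives facial motor neurons their identity in mouse, was on in alcohol pool 1 only (5.79, 5.39 and 5.19 with alcohol, 5.38, 5.62 and 4.53 with saline). Its dimmer feature gave another order, with its highest values, 5.83 and 5.63, in saline pool 1 and alcohol pool 2. At levels this close to the floor, the 2 Hoxb1 features did not rank the pools alike.

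Hoxa5, which acts in lung development and in phrenic motor neurons of the mouse, read 4.13, 5.05 and 4.99 with alcohol and 5.77, 4.95 and 4.61 with saline. Hoxa9, a trunk-level gene known for its role in blood-forming cells, read 5.06, 5.07 and 5.44 with alcohol and 4.54, 5.75 and 5.99 with saline. Each therefore crossed the floor by a small margin, Hoxa5 in saline pool 1 and Hoxa9 in saline pools 2 and 3.

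The 2 members of high paralog number that reached the floor most often are genes of the posterior body. Hoxc13, known in mouse for hair and nail formation, read 6.58, 6.21 and 7.13 with alcohol and 5.91, 6.26 and 6.73 with saline. Hoxc10, a lumbar spinal cord gene in mouse, read 5.90, 5.09 and 6.14 with alcohol and 4.34, 5.65 and 5.00 with saline. Both were lowest in saline pool 1, and neither set alcohol pool 2 and saline pool 1 above the rest. Another feature of Hoxc13 was off in all 6 pools (4.25 to 5.27), and the other feature of Hoxc10 gave 5.46, 4.41 and 5.91 with alcohol and 4.77, 5.80 and 5.01 with saline. The features of Hoxc13 therefore did not give the same answer on whether the gene was on.

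Among the genes named without values, the other feature of Hoxd10 reached 5.81 in saline pool 2 and was the only such feature over the floor. Some names are uncertain in the files. The Hoxb2 entry carries an alias of an epididymal Hoxb2-like protein. The Hoxc8 entry and the row that stands for Hoxc6 are described as similar to the C9 protein, while another Hoxc6 row is described as similar to C6. The gene number of the Hoxc8 entry now belongs to Hoxc9 in RefSeq. Probe sequences were not analysed here, so signal shared between paralogs was not tested.

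A further 13 Hox genes stood on the array under placeholder symbols and are not members by the rule. Hoxa3, named from its protein description and needed for thymus and parathyroid formation in mouse, read 4.74, 8.32 and 5.03 with alcohol and 8.27, 4.65 and 5.20 with saline. Hoxb4 read 4.96, 6.28 and 4.21 and then 6.81, 4.62 and 4.84. Hoxb5 read 5.17, 6.17 and 5.04 and then 6.38, 4.87 and 4.91. These 3 (23.1% of the 13) were again on in alcohol pool 2 and saline pool 1 alone. Hoxb6, at 5.15, 4.40 and 5.22 with alcohol and 4.28, 5.72 and 6.02 with saline, and Hoxa10, at 5.11, 4.64 and 5.35 and then 4.51, 5.05 and 6.42, were lowest in those pools. The other feature of Hoxa10 was off in all pools at 4.41 to 5.12 and was lowest in alcohol pool 3. The name Hoxa10 rests on the protein description, while the placeholder symbol of both features is listed under Hoxa11 in RefSeq.

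With these genes added, 37 Hox genes were measured. Of the 14 in paralog groups 1 to 5, 2, 9 and 2 were on in the alcohol pools and 10, 0 and 2 in the saline pools. Of the 23 in groups 6 to 13, 2, 1 and 2 were on with alcohol and 1, 4 and 4 with saline. The division between low and high paralog numbers was thus the same with the wider set of names.

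Setting alcohol against saline asks which genes of this tissue respond to acute intoxication. No Hox gene passed: limma called 0 of the 24 members at an adjusted p of 0.05, as it called 0 (0.00%) of all 26419 features. At an unadjusted p under 0.05 it called 0 of 24, against 1030 features (3.90%). No member had its 3 alcohol pools all above (4.39% of all features) or all below (4.36%) its 3 saline pools. The difference was positive for 15 members and negative for 8, and for Hoxc5 it was 0.00. Over the 11 members that were on somewhere, the median difference was 0.02, beside -0.03 over all 20549 such features.

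The 6 members with the highest means show how wide the error was. Hoxa2 averaged 6.51 ± 3.54 (SD, n = 3) with alcohol and 6.28 ± 3.55 (SD, n = 3) with saline, a difference of 0.23 with an SE of 2.31. Hoxb3 averaged 7.02 ± 1.65 (SD, n = 3) and 6.82 ± 1.66 (SD, n = 3), a difference of 0.20 (SE 1.09). Hoxd3 differed by 0.02 (SE 1.05) and Hoxd1 by -0.08 (SE 0.88). In these 4 genes the SD within a group was far wider than the difference between groups. Hoxc13 averaged 6.64 ± 0.47 (SD, n = 3) with alcohol and 6.30 ± 0.41 (SD, n = 3) with saline, a difference of 0.34 (SE 0.32), and Hoxd4 differed by -0.17 (SE 0.25). Leaving out each pool in turn moved Hoxc13 between 0.09 (without alcohol pool 3) and 0.56 (without alcohol pool 2), and Hoxd4 between -0.37 (without saline pool 2) and -0.02 (without alcohol pool 1). The adjusted p from limma was 1.00 for all 6 genes.

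Without alcohol pool 2 and saline pool 1, limma again called 0 members and 0 features (0.00%). Within these 4 pools the difference was 0.17 (SE 0.41) for Hoxb3, 0.36 (SE 0.28) for Hoxc13 and -0.22 (SE 0.30) for Hoxd4, with adjusted p-values of 0.937, 0.778 and 0.880. By the rows used, Hoxa2, Hoxd1 and Hoxd3 were off in all 4 pools (the dimmer feature of Hoxd3 was on in alcohol pool 3), so their differences of 0.23, -0.18 and -0.05 lie under the floor. At an unadjusted p under 0.05 the 4-pool fit had 3 members, against 8.03% of all features: Hoxa9 at -0.62 (SE 0.21), Hoxc12 at -0.75 (SE 0.25) and Hoxd13 at 0.80 (SE 0.27), of which only Hoxa9 was on anywhere. A term for the 2 pools in the fit to all 6 gave 0 members by adjusted p (0.00% of features) and 2 by unadjusted p (9.47% of features), namely Hoxc10 at 0.71 (SE 0.20) and Hoxd13 at 0.60 (SE 0.23). Their adjusted p-values were 0.452 and 0.511, and these members were named after their values were seen.

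Between alcohol pool 2 and saline pool 1, which is 1 pool against 1 without a replicate check, the difference was 0.22 for Hoxa2, 0.26 for Hoxb3, 0.26 for Hoxc4, 0.13 for Hoxd1 and 0.18 for Hoxd3. Over the 7 members on in both it ranged from -0.09 to 0.29 with a median of 0.22. Over all 17187 features on in both the median was -0.03, and the range from the 5th to the 95th percentile was -0.55 to 0.56. The Hox differences between these pools thus lay within that range, and the dimmer feature of Hoxd3, at 1.47, lay outside it.

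**Figure D4:**
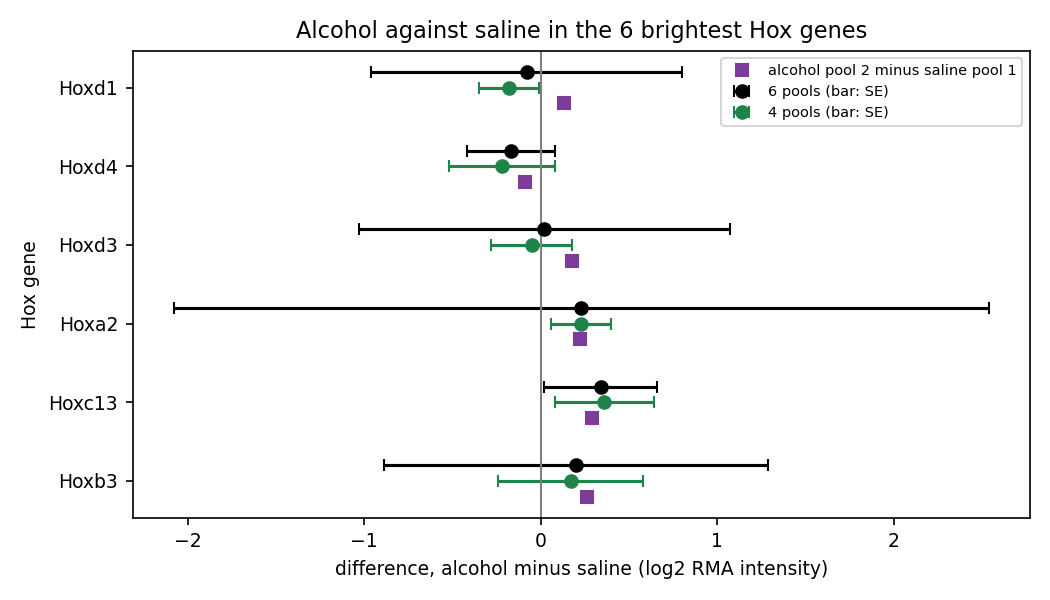
Difference between alcohol and saline in log2 RMA intensity (horizontal axis) for the 6 members with the highest means, in rows; black circles are the fit to 6 pools and green circles the fit to the 4 pools without alcohol pool 2 and saline pool 1, with bars of 1 SE, and purple squares are alcohol pool 2 minus saline pool 1, which has no error. The black bars of Hoxa2, Hoxb3, Hoxd1 and Hoxd3 are the widest (SE 0.88 to 2.31) and all 4 cross 0.

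Hox proteins bind DNA with cofactors of the Pbx, Meis and Pknox families, of which 7 of 9 listed genes were measured. Meis2, a cofactor that raises the DNA affinity of Hox and Pbx complexes, read 6.46, 11.04 and 6.90 with alcohol and 11.69, 5.91 and 6.66 with saline. Pbx3 read 9.44, 10.90 and 9.50 and then 10.21, 9.60 and 9.39. These 2 cofactors were highest in the same pools as Hoxa2, while Meis3 and Pknox1 were lowest there, at 8.05 and 8.41 for Meis3 and 6.51 and 6.98 for Pknox1 in alcohol pool 2 and saline pool 1. By treatment, 0 of the 7 passed the test, and the median difference was -0.11.

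Retinoic acid, made from vitamin A, switches on low-numbered Hox genes in the embryo. Of 19 genes of its synthesis, transport, breakdown and reception, 7 were higher in alcohol pool 2 and saline pool 1 than in the other 4 pools (23.4% of all features) and 3 lower (25.1%). Aldh1a1, an enzyme that makes retinoic acid, read 11.33, 12.75 and 11.24 with alcohol and 13.27, 11.17 and 10.97 with saline. Aldh1a3, another such enzyme, read 6.92 and 7.32 in those 2 pools against 5.17 to 6.72 elsewhere. The carrier Rbp4 read 11.17 and 11.51 there against 9.46 to 10.29, and Crabp1, which binds retinoic acid in the cell, did not separate the pools, with 6.71 and 8.67 against 5.08 to 6.91. None of the 19 passed the treatment test after adjustment. Only Cyp26c1, which breaks down retinoic acid, had an unadjusted p under 0.05, against 3.90% of all features. The Cyp26c1 difference was 0.62 (SE 0.21).

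Genes of embryonic hindbrain segmentation and regulators upstream of Hox genes were on in at least 1 pool for 8 of 12, against 77.8% of all features. Epha4, a receptor of segment boundaries, read 9.10, 10.11 and 8.85 with alcohol and 10.20, 8.87 and 8.32 with saline. It was highest in alcohol pool 2 and saline pool 1, whereas Cdx1, a Hox regulator of the trunk, was lowest there at 7.38 and 7.14 against 7.92 to 9.55. Gbx2 was at 5.40 and 5.20 in those pools and between 4.49 and 5.95 in the rest. In this list 0 of 12 passed by treatment.

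Polycomb proteins keep Hox clusters silent and trithorax proteins keep them active. Of 20 measured genes, 17 were lower in alcohol pool 2 and saline pool 1 than in the other 4 (25.1% of all features) and 0 were higher (23.4%). Pcgf2, a subunit of polycomb repressive complex 1, read 11.91, 10.56 and 12.02 with alcohol and 10.89, 12.02 and 11.73 with saline. The polycomb genes Phc2 and Cbx8 read 10.86 and 11.13, and 7.11 and 7.40, in those 2 pools, against 12.11 to 12.50 and 7.94 to 8.61 elsewhere. Kmt2b, a trithorax-type methyltransferase, read 8.91 and 8.81 against 9.75 to 10.25. By treatment 0 of the 20 passed, with a median difference of -0.01.

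Homeobox genes of other head levels separated the pools in both directions, 6 of 24 each way, near the 23.4% and 25.1% of all features that were higher or lower there. En2, a midbrain and cerebellum gene, read 10.03, 6.24 and 9.57 with alcohol and 5.80, 10.12 and 9.79 with saline. Barhl2 read 9.94, 6.25 and 10.97 and then 5.83, 10.61 and 10.86. Otx2, a forebrain and midbrain gene that granule cells of the posterior cerebellum also use in mouse, read 8.56, 5.50 and 8.95 and then 6.76, 8.42 and 9.20. These 3 were lowest where Hoxa2 was highest. Irx2, by contrast, read 6.85, 10.36 and 6.98 and then 10.41, 6.82 and 7.10. The treatment test passed 0 of 24. Only Lmx1b, off in all pools, had an unadjusted p under 0.05, against 3.90% of all features.

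Transcription factors of hindbrain nuclei were measured for 21 genes, of which 5 were higher in alcohol pool 2 and saline pool 1 than elsewhere and 4 lower, where 23.4% and 25.1% of all features were. Gata3, used by serotonin and other hindbrain neurons, read 4.81, 9.45 and 5.11 with alcohol and 9.95, 4.43 and 5.36 with saline. Lhx1, a Purkinje cell gene as well as a hindbrain one, read 9.11, 5.07 and 9.34 and then 6.50, 9.40 and 9.21. Lhx5 was likewise lowest in those 2 pools (4.89 and 7.25 against 7.93 to 8.43), as was Lbx1 (4.93 and 5.70 against 8.28 to 9.09). Phox2a and Isl1, which mark cranial motor neurons among others, were off in all 6 pools. By treatment 0 of 21 passed. Without alcohol pool 2 and saline pool 1, 0 of the 103 genes of these 6 lists passed, 8 had an unadjusted p under 0.05 (8.03% of all features), and the list medians ran from -0.12 to 0.07.

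**Figure D5:**
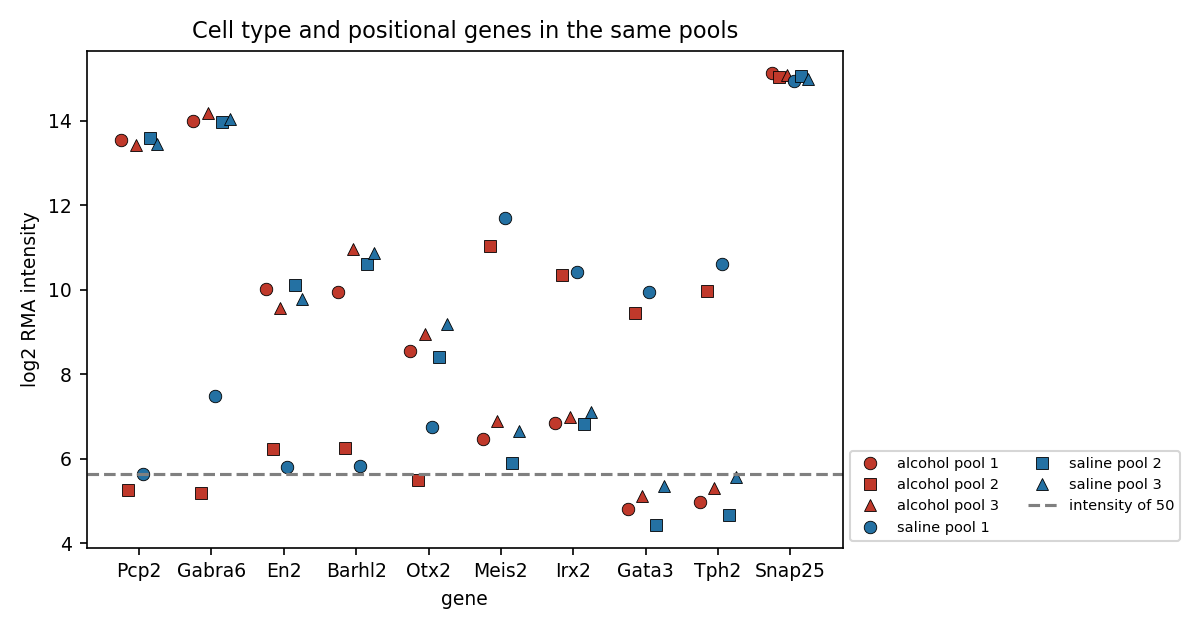
Log2 RMA intensity (vertical axis) of cell type markers and positional genes in the 6 pools, with alcohol pools in red, saline pools in blue, pool numbers by marker shape and the dashed line at an intensity of 50. Pcp2, Gabra6, En2, Barhl2 and Otx2 are lowest, and Meis2, Irx2, Gata3 and Tph2 highest, in alcohol pool 2 and saline pool 1, while Snap25 lies between 14.93 and 15.12 in all pools.

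Markers of other cell types moved with the same 2 pools, and their part in the Hox values was not tested. Tph2, which makes serotonin in neurons, read 4.97, 9.96 and 5.30 with alcohol and 10.61, 4.68 and 5.56 with saline. All 6 markers of the serotonin neuron list were higher in both pools than in the rest, as 23.4% of all features were. Of these, Fev was on in alcohol pool 2 (6.27) but under the floor in saline pool 1 (5.05). The summed intensity of that list was 11.56 and 12.29 on the log2 scale in alcohol pool 2 and saline pool 1 against 8.58 to 8.96. Of the brainstem and motor neuron list, 4 of 9 were higher, with summed levels of 11.90 and 12.28 against 9.39 to 9.52, while the defining genes Phox2a and Isl1 were off. Of those 4, Slc18a3 was under the floor in all pools, and Slc17a6 and Slc6a5 were the brightest. Chat, another gene of the list, was under the floor in alcohol pool 2 (5.13) and saline pool 1 (5.30). All 8 oligodendrocyte markers were higher, with summed levels of 17.37 and 17.38 against 15.97 to 16.54, and so were all 4 microglial ones, with 12.64 and 12.38 against 10.87 to 11.35. The spinal cord list holds Hox genes only, so it is no separate marker of the tissue, and 3 of its 4 were found by name. By the rows used, only Hoxc10 of these 3 was on in any pool, and it was off in alcohol pool 2 and saline pool 1. Hoxa10, the gene not found by name, is given above under its placeholder symbol.

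These 2 pools also differed from each other. Th, the enzyme that starts catecholamine synthesis, read 8.18 in alcohol pool 2 and 11.15 in saline pool 1, against 5.21 to 6.37 elsewhere, and the dopamine transporter Slc6a3 read 6.95 and 9.06 against 4.44 to 6.12. For the 7 members on in both, the differences of -0.09 to 0.29 were smaller in size than these steps, though the dimmer feature of Hoxd3 differed by 1.47 in the opposite direction. Hoxb4, under its placeholder symbol, differed by -0.53.

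The authors' value table keeps a feature only where 3 or more arrays are at 50 or above. It holds 5 of the 24 members, Hoxb3, Hoxc10, Hoxc13, Hoxd3 by its dimmer feature, and Hoxd4. Hoxa2, Hoxc4 and Hoxd1, which were on in 2 pools, are left out by that filter, and their values stand in the array files alone.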

How the data were processed

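RNA of 6 tissue pools was measured on 6 single-colour NimbleGen arrays (Cy3). The authors deposited a linear RMA intensity per feature and array; RMA is named without a version, per the submitters' processing notes, and whether the arrays were normalised together, and the genome build, are not given in the sources used here. Per the file contents, the deposited intensity had an array median of 213.2 to 232.8, and 66.9% to 68.8% of features reached 50. Log2 was taken with no normalization added, and 1 control entry of 5651 random-sequence probes was left out. Features have 5 probes, with few exceptions, and all 34 Hox features have 5. The number of arrays limits the precision.

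A trailing _predicted was removed from symbols, and 5 members whose symbol ends in _mapped were accepted. Names of further Hox genes came from RefSeq (GRCr8) by gene ID, matched for 20681 features, or from the files' protein descriptions. The treatment test was a two-sided moderated test in limma 3.58.1 under R 4.3.3 (lmFit, then eBayes) with no term besides treatment, adjusted by Benjamini-Hochberg over all features. The fit was tested on simulated data. An exact permutation test of 3 against 3 pools cannot go below p = 0.10. Each p-value reflects variation from pool to pool only, and the labels give no batch.

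Members and gene lists were chosen with earlier results of these data known. The rule for names took every Hox gene, values for those on in at least 1 pool, differences for the 6 with the highest means, and up to 4 genes with the widest range from each other list, plus Snap25, Pcp2, Gabra6 and Tph2; some genes that the rule or lists hold are not reported here, and other genes were named after their values were seen. Of the 22 lists, 6 were gene lists and 16 cell type or region markers: Purkinje cells, granule cells, cerebellar interneurons, astroglia, oligodendrocytes, serotonin, catecholamine, brainstem and motor neurons, spinal cord, forebrain, thalamus and midbrain, choroid plexus, vessels, microglia, general neuronal, and pituitary. Over the marker lists, 0 of 101 genes passed the treatment test and 2 had an unadjusted p under 0.05, against 3.90% of all features. The list medians ran from -0.58 to 0.39. Within the 4 pools without alcohol pool 2 and saline pool 1, 0 passed and 4 had an unadjusted p under 0.05, against 8.03% of all features. Medians there ran from -0.22 to 0.38. Over the 6 gene lists in all 6 pools, 0 of 103 passed and 2 had an unadjusted p under 0.05, against 3.90% of all features. Their medians ran from -0.14 to 0.10.

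Alternatives were the authors' table, median centring, quantile normalization, leaving out each pool, a replicate block, a term for alcohol pool 2 and saline pool 1, a fit without them, eBayes with trend and robust options, a filter on dim features, a gene's features averaged, and floors of 32 and 100. The lists in the 4-pool fit, and sets with the placeholder names added and without the _mapped names were chosen after seeing the data. Python 3.11.15, pandas 2.3.3, numpy 2.4.6 and matplotlib 3.10.9 were used.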

Additional observations from a re-analysis of the deposited data

How the results depend on the processing

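The count of 0 Hox genes and 0 features past the adjusted threshold held in limma under every alternative run, with 503 to 2502 features at an unadjusted p under 0.05 and a smallest adjusted p over all features of 0.13, reached without alcohol pool 2. The number of members on depended on the floor. At an intensity of 100 it was 0, 5 and 1 in alcohol pools 1, 2 and 3 and 5, 0 and 1 in saline pools 1, 2 and 3. At 32 it was 10, 17 and 12 with alcohol and 13, 10 and 9 with saline. Averaging a gene's features gave 2 in alcohol pool 1, and the authors' table gave 3 in alcohol pool 2 and 3 in saline pool 1, where its filter removes features on in 2 pools and Hoxd3 was not counted, its brighter row being absent. The median Hox difference of 0.02 ran from -0.55 (without alcohol pool 2) to 0.39 (without saline pool 1) when each pool was left out. Leaving out pools likewise turned the sign of Hoxa2 (-1.82 to 2.28), Hoxb3 (-0.74 to 1.11), Hoxd1 (-0.89 to 0.63) and Hoxd3 (-0.93 to 0.90), with both ends of each range reached without alcohol pool 2 or saline pool 1. Hoxd3 was -0.01 under quantile normalization and -0.05 in 4 pools, and Hoxc13 was -0.09 with the mean of its features, 1 of which is off. The cause of the other changes was not tested. The authors' table and the dim filter give no value for Hoxa2, Hoxd1 or the brighter row of Hoxd3. Deviations from the group mean in pools 1, 2 and 3 correlated over features at -0.63, -0.68 and 0.60 between the groups. Alcohol pool 2 and saline pool 1, which carry different numbers, correlated at 0.84. As 1 such pool lies in each group and shapes these deviations, the check cannot decide whether the numbers are a pairing. With the replicate block the differences cannot change, because each number holds 1 pool of each group. Only the error and the p-values can move, as for Hoxb3 at 0.20 (SE 1.28, against 1.09 without the block). The limma fit with the block called 0 features, with 647 in place of 1030 at an unadjusted p under 0.05. Genes near an intensity of 50 are limited by the arrays' background.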
